A study of Mus musculus with 8 samples.

Results

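Mitochondrial ribosomal proteins, the 78 protein-coding genes whose symbols begin with Mrpl or Mrps and a number, were followed in mouse liver with and without the transcription factor CHOP. They were found by symbol among the 52551 rows of the count files, with Ensembl IDs named through GENCODE mouse M21, and all 78 that the annotation holds were present, 49 named Mrpl for the large and 29 named Mrps for the small ribosomal subunit. PiZ/Chop-/- livers came from male C57BL/6 mice aged 6 weeks that carried PiZ and lacked Chop, whose gene symbol is Ddit3. PiZ livers, with Chop, came from male C57BL/6 mice of the same age. PiZ, the transgene both groups share, encodes human alpha-1 antitrypsin (SERPINA1) in its Z form, a protein that folds poorly and is retained in the hepatocyte endoplasmic reticulum. Each group had 4 libraries. The labels give neither the promoter of the transgene nor the deleted part of Chop, and the wild-type group that the design text names was not analysed here. The question put to the data is how transcript levels in PiZ livers depend on the presence of CHOP.

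Mitochondrial ribosomes make the few proteins that mitochondrial DNA encodes, all of them core parts of the respiratory chain and of ATP synthase. Their RNA comes from mitochondrial DNA, while every one of their proteins is encoded in the nucleus, made in the cytosol and imported, so the genes here belong to a particle assembled from both genomes. In mammals these particles hold more protein and less RNA than bacterial ribosomes, and many of the proteins have no bacterial counterpart. CHOP, made during stress of the endoplasmic reticulum, has also been linked to the mitochondrial unfolded protein response of mammalian cells.

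The members were spread over 17 chromosomes, with most on chromosome 11 (11 genes) and chromosome 17 (8 genes). Only 2 lay on chromosome 10, which carries Ddit3: Mrpl42 at 31.8 Mb from it and Mrpl54 at 46.03 Mb. A feature that the choice by symbol did not use was the arrangement of their starts. Of the 78 genes, 33 (42.3%) had the start of another protein-coding gene on the opposite strand within 1000 bases in GENCODE M21, against 10.9% of the 21819 protein-coding genes of the files. In 18 of the 33 the starts lay apart and in 15 the first parts of both genes overlapped. Mrpl46 and Mrps11, a large and a small subunit protein, are such partners of each other. Others faced Twnk, the helicase of mitochondrial DNA (Mrpl43), Sars2, the mitochondrial seryl-tRNA synthetase (Mrps12), Ndufs6 and Ndufb5 of respiratory complex I (Mrpl36 and Mrpl47), and Psma2, a proteasome subunit (Mrpl32). These are examples picked from 31 partners that are not members, and the share with a mitochondrial role was not counted. Hira, Klc4, Tmem63b and Rab6a are among the rest.

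RefSeq promoter windows (GRCm38.p6, the build of mm10), of 300 bases with 250 before and 50 after the start, were matched to 69 of the 78 genes, giving 75 windows. They were searched on both strands for 7 motifs chosen with earlier results of these data known. The motif CCGGAAG of ETS factors such as GABP, a known regulator of genes for mitochondrial proteins, was in 26 of the 75 windows (34.7%), against 18.5% of the 8642 windows of tested genes and 8.86% of all 32851 windows. NRF1, the other classical regulator of such genes, has the motif GCATGCGC, which was in 10.7% of the member windows, 5.28% of those of tested genes and 2.71% of all. The motif AAGATGG of YY1 was in 17.3%, 7.46% and 6.34%. A GC box (GGGCGG) was in 52.0%, 62.7% and 35.7%, a CCAAT box (CCAAT) in 40.0%, 37.6% and 37.4%, and a TATA box (TATAAA) in 6.67%, 7.58% and 13.6%. The composite motif TGATGCAA, which C/EBP and ATF factors including CHOP can bind, was in 0 of the 75 windows, against 0.613% and 0.895%. With shares this low, 75 windows are too few for a count of 0 to show a lack of it. These shares describe letters, and the median GC content was 58.7% in member windows, 60.8% in those of tested genes and 52.7% in all.

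The sequences below show this architecture for the genes the results return to. Capitals mark CCGGAAG, GCATGCGC or AAGATGG in either orientation, and since the reverse of GCATGCGC overlaps it, the run GCGCATGCGC holds it in both. The first 3 are the 250 bases before the start of Mrpl17 and Mrps2, 2 genes whose groups did not overlap, and of Mrpl12, the gene of highest level. The other 4 are the bases between the RefSeq starts of a pair, read on the strand of the first gene named. Those of Mrps2, Mrpl12 and the last 2 pairs hold none of the 3 motifs. RefSeq and GENCODE place some starts differently, so a pair whose first parts overlap in one can lie apart in the other.
Mrpl17, chr7:105811088-105811337, minus strand: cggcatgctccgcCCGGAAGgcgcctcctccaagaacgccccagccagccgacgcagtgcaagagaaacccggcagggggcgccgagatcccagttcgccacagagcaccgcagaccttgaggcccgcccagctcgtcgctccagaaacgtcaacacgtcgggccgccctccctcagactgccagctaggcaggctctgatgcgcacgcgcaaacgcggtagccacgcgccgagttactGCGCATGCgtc
Mrps2, chr2:28467816-28468065, plus strand: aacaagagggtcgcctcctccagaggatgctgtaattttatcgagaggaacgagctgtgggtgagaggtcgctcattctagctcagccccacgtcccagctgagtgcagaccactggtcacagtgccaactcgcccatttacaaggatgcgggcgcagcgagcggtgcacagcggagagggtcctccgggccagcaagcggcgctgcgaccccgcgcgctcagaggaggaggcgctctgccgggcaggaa
Mrpl12, chr11:120484387-120484636, plus strand: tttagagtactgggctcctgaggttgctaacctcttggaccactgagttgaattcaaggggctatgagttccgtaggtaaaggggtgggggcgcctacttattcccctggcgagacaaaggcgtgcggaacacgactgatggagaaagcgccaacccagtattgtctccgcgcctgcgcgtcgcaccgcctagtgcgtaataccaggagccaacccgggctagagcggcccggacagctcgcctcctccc
Mrpl43 and Twnk, chr19:45006443-45006557, minus strand: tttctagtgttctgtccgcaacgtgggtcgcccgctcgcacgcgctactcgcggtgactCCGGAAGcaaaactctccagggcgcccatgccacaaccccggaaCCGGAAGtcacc
Mrpl32 and Psma2, chr13:14613038-14613241, minus strand: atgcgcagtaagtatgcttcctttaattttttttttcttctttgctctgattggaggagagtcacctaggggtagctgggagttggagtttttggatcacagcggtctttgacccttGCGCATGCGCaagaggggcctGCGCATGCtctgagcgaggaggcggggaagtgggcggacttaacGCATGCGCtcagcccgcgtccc
Mrps12 and Sars2, chr7:28741822-28741967, minus strand: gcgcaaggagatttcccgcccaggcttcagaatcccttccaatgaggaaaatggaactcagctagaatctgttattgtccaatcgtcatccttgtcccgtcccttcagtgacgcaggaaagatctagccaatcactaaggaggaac
Mrpl46 and Mrps11, chr7:78783090-78783130, minus strand: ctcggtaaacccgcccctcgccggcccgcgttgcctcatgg

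Total counts ran from 1850275 to 2375907 in the PiZ/Chop-/- libraries and from 1650260 to 3064385 in the PiZ libraries, and 8669 genes passed the filter on low counts. Ddit3 had 8, 3, 5 and 9 counts in PiZ/Chop-/- libraries 1 to 4, against 311, 290, 595 and 180 in PiZ libraries 1 to 4, so every library followed its label. SERPINA1 ran from 554 to 712 CPM in PiZ/Chop-/- livers and from 950 to 1840 CPM in PiZ livers, with no overlap. Its log2 fold change of PiZ/Chop-/- over PiZ was -1.23 (edgeR quasi-likelihood test, adjusted p = 0.00873). Without PiZ/Chop-/- library 3 the adjusted p of SERPINA1 came to 0.0575. The transgene transcript was thus lower in livers without CHOP, and the part of this in the levels of other genes was not tested. CPM values here use library sizes after TMM scaling. The hepatocyte markers Alb, Apoa1, Ttr, Serpina1c, Cyp2e1 and Tat were all detected and summed to between 27400 and 35600 CPM in PiZ/Chop-/- livers and between 23500 and 37600 CPM in PiZ livers. PiZ libraries 4 and 1 correlated least with their own group on average (0.914 and 0.931), against 0.932 to 0.951 in the other 6 libraries. Separate mice for the libraries are not stated in the labels, so a p-value here reflects only the spread among libraries, which may be technical.

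Mitochondrial ribosomal protein transcripts were present at modest levels. Together they summed to 4110, 3840, 3330 and 3770 CPM in PiZ/Chop-/- libraries 1 to 4 and to 4070, 4170, 3900 and 3950 CPM in PiZ libraries 1 to 4. PiZ/Chop-/- library 3 was the lowest of the 8, and the groups overlapped. The cytosolic ribosomal proteins, for comparison, summed to 10200 to 11400 CPM in PiZ/Chop-/- livers and 11900 to 14200 CPM in PiZ livers. There the groups did not overlap. Some of the 84 cytosolic genes had almost no counts: Rpl10 averaged 0.649 CPM, Rpl11 averaged 2.06 CPM and Rps6 had none in any library. The cytosolic sum thus covers only part of that family, and the cause of the missing counts was not tested. Libraries were made from the 3' ends of transcripts, so levels of different genes are compared as CPM with no division by length, although the capture of each end can differ.

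**Figure D1:**
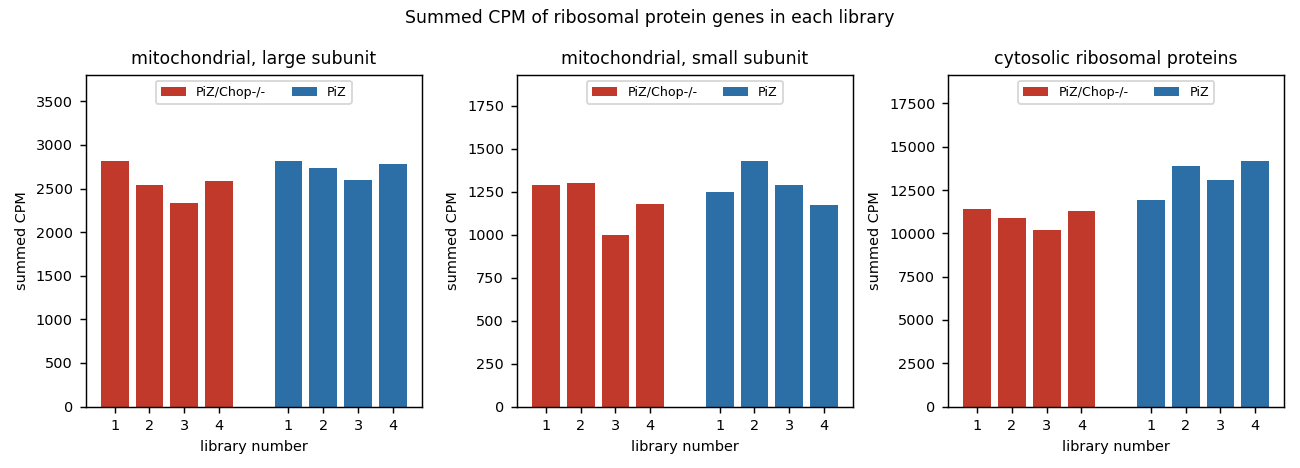
Summed CPM (vertical axis) of the Mrpl genes, the Mrps genes and the cytosolic ribosomal protein genes in each of the 8 libraries, with PiZ/Chop-/- libraries in red and PiZ libraries in blue. The mitochondrial sums overlap between the groups, while the cytosolic sums of PiZ/Chop-/- livers, at most 11400 CPM, lie under all PiZ libraries. Some cytosolic genes had few or no counts, so their sum covers only part of the family.

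Levels differed widely between members. Averaged over the 8 libraries, 8 genes stood at 100 CPM or more, 20 between 50 and 100, 35 between 10 and 50, and 15 under 10. Mrpl12, which forms the flexible stalk that recruits translation factors and is the protein present in several copies per ribosome, was the highest at 464 CPM. Mrps12, a protein of the decoding centre, followed at 183 CPM and Mrps18a at 168 CPM. The next were Mrps34, a small subunit protein found in mitochondria and not in bacteria, at 117 CPM, and Mrpl17 at 110 CPM. Replicates of these differed by much: Mrps18a ran from 117 to 232 CPM among PiZ/Chop-/- libraries and from 77.4 to 208 CPM among PiZ libraries. Its order against Mrps12 was thus not beyond their spread. Other annotated genes overlap the ends of Mrpl12 (Gm16755) and Mrps34 (Mapk8ip3 and Nme3), and their part in the counts was not tested.

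**Figure D2:**
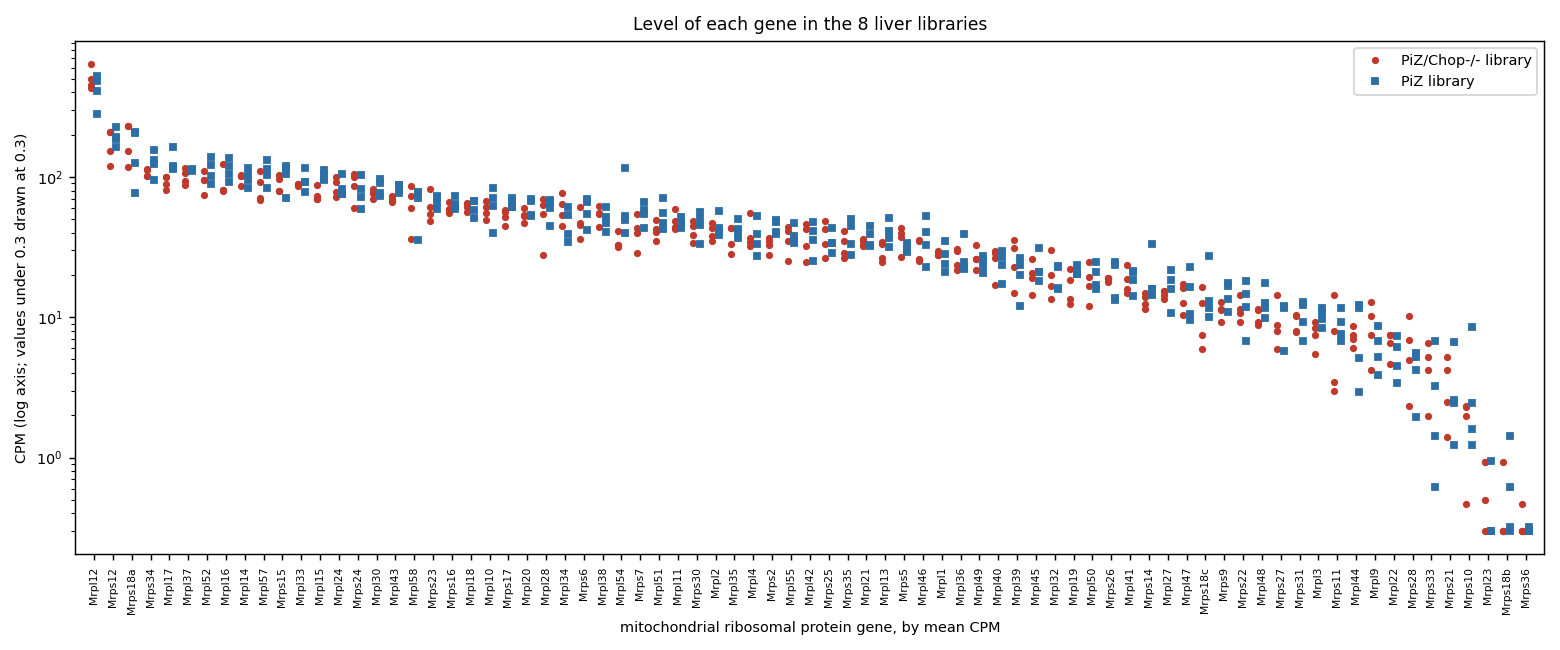
CPM on a log axis for the 77 mitochondrial ribosomal protein genes with at least 1 count, ordered by mean CPM, with red circles for PiZ/Chop-/- libraries and blue squares for PiZ libraries. Mrpl12 stands above all others in mean level, at 464 CPM, and the symbols of the 2 groups lie among each other for most genes.

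At the low end, 7 members had too few counts to be tested. Mrps33, Mrps21 and Mrps10 had 64, 55 and 44 counts over all 8 libraries, and Mrpl23 and Mrps18b had 7 each. Mrps36, now known mainly as a part of the 2-oxoglutarate dehydrogenase complex, had 2 counts. Mrpl53 had none among 17122720 reads, where the limit that a count of 0 allows is 3 reads, or 0.175 CPM. Another annotated gene overlaps the last 500 bases of Mrpl53 (Gm42688, on the same strand) and of Mrps18b (Gm16279, on the other strand), as it does in 19 of the 78 genes, and its part in the low counts was not tested. The 3 mouse genes related to bacterial ribosomal protein S18 thus differed greatly in count: Mrps18a averaged 183 CPM in PiZ/Chop-/- livers and 154 CPM in PiZ livers, Mrps18c averaged 10.6 CPM in PiZ/Chop-/- livers and 15.6 CPM in PiZ livers, and Mrps18b was near 0. The end of Mrps18a overlaps Rsph9 on the other strand, and no source used here gives the strand setting, so reads of Rsph9 may be among its counts.

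No mitochondrial ribosomal protein gene passed the test between PiZ/Chop-/- and PiZ livers. Of the 71 that could be tested, 0 passed an adjusted p of 0.05 (edgeR quasi-likelihood test, Benjamini-Hochberg over all 8669 genes). The share over all tested genes was 1.03%, or 89 genes, of which 0.692% of the tested genes were lower and 0.335% higher. At an unadjusted p below 0.05 the count was 3 of 71 (4.23%), against 13.1% of all tested genes. DESeq2 and limma-voom called 0 members too. When low-count genes were kept in the fit, edgeR called 1, Mrpl54 (adjusted p = 0.0208).

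The fold changes of the members leaned below 0. The median log2 fold change of PiZ/Chop-/- over PiZ was -0.15, against -0.0016 over all tested genes, and 52 of the 71 (73.2%) were below 0, against 50.2% of all tested genes. The Mrps genes had a median of -0.19 with 19 of 24 below 0, and the Mrpl genes had -0.12 with 33 of 47 below 0. The symbol is not always the place of the protein: Mrps18a and Mrps30 are part of the large subunit in structures of the mammalian ribosome. Without PiZ library 4 the median was -0.065 with 43 genes below 0, without PiZ/Chop-/- library 3 it was -0.093, and without PiZ libraries 1 and 4 together it was -0.12. The Mrpl median came to -0.037 without PiZ library 4. In whole liver, fewer cells of a type and less RNA per cell cannot be told apart.

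Each library was also scored by the median, over the 71 genes, of log2 CPM minus the gene's own mean. PiZ/Chop-/- libraries 1 to 4 stood at -0.070, -0.047, -0.18 and -0.0017, and PiZ libraries 1 to 4 at 0.092, 0.064, 0.015 and 0.23. PiZ/Chop-/- library 3 was the lowest and PiZ library 4 the highest. In this score, where each gene counts equally, the groups did not overlap, by a narrow gap (-0.0017 against 0.015). In summed CPM, where abundant genes weigh most, they did overlap. PiZ library 4 was the highest of all 8 libraries for 25 of the 71 genes and also the lowest for 13, while PiZ/Chop-/- library 3 was the lowest for 22 and the highest for 1. Of the 53 named genes in the fits, 38 had a fold change that moved by over 1.5 times or changed sign when 1 library was left out, 22 of them without PiZ library 4.

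The intervals limited how large a change could have been. The 95% interval of the fold change stayed within a 2-fold change in either direction for 62 of the 71 genes (87.3%), against 61.0% of all tested genes, whose median level was lower (23.1 CPM, against 38.8 CPM for the members). It stayed within a 1.5-fold change for 18 genes (25.4%, against 13.3%). The median SE was 0.23 among the members and 0.28 among all tested genes.

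**Figure D3:**
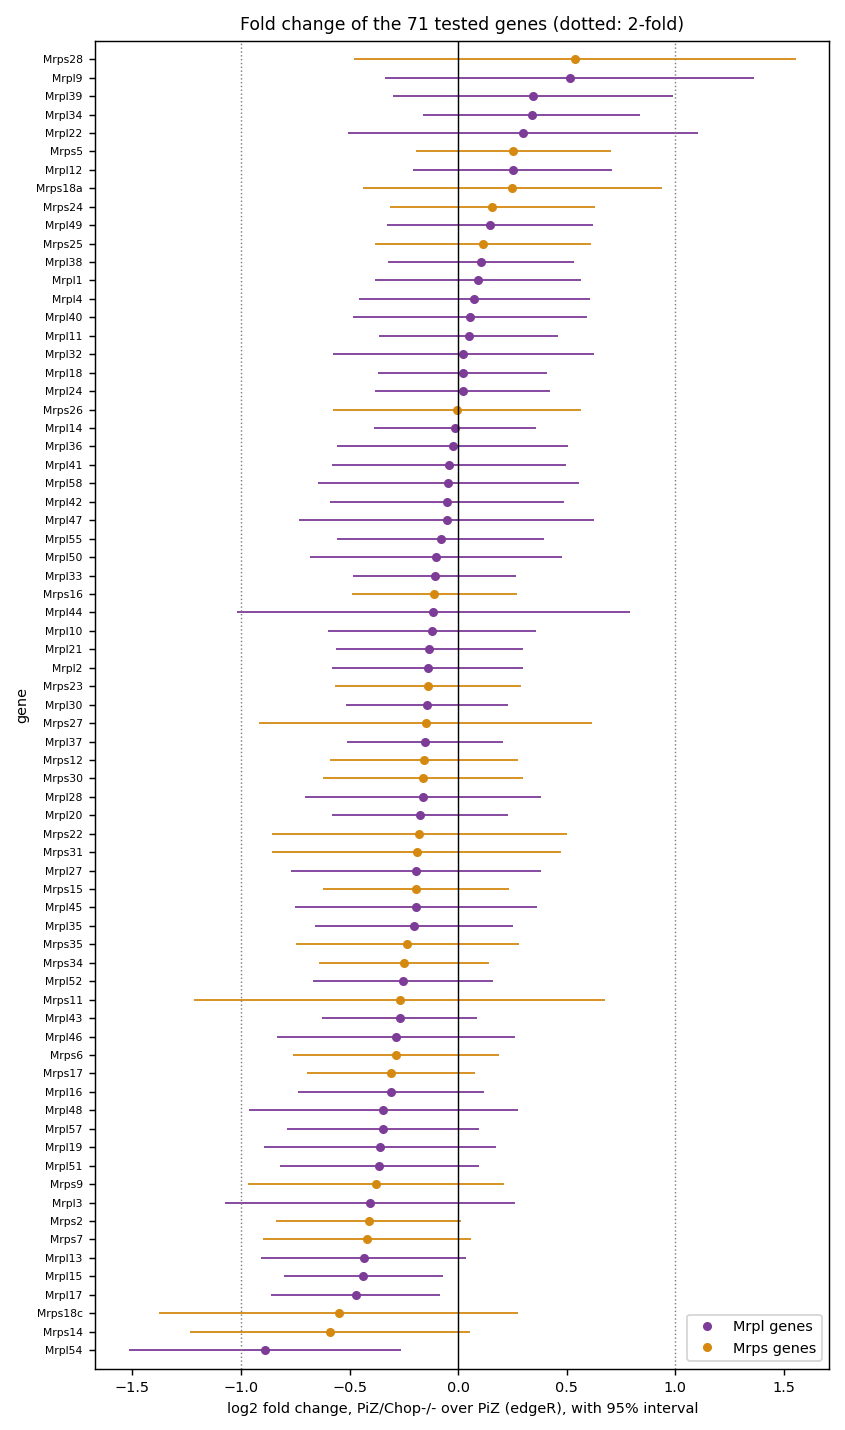
Log2 fold change of PiZ/Chop-/- over PiZ with its 95% interval for each of the 71 tested genes, Mrpl genes in purple and Mrps genes in orange, with dotted lines at a 2-fold change. Most points lie left of 0, and 62 intervals stay between the dotted lines.

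In 5 members the groups did not overlap, all of them lower in PiZ/Chop-/- livers: Mrpl17, Mrpl15, Mrps2, Mrps17 and Mrpl43. That is 7.04% of the 71, near the 7.88% found over all tested genes in both directions and beside 4.22% lower and 3.66% higher. Mrpl17, Mrpl15, Mrps2 and Mrps17 have bacterial counterparts, while Mrpl43 is found in mitochondria and not in bacteria. None of the 5 passed the adjusted threshold.

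Mrpl17 (ENSMUSG00000030879, mm10 chromosome 7, 105803206 to 105811099, minus strand) had 99.4, 80.5, 88.9 and 99.2 CPM in PiZ/Chop-/- libraries 1 to 4, against 119, 115, 113 and 163 CPM in PiZ libraries 1 to 4. PiZ library 4 was the highest and the other 3 PiZ libraries lay close together. The log2 fold change came to -0.47 (SE 0.18, adjusted p = 0.290), and -0.32 without PiZ library 4. Its end overlaps Gm15645 on the other strand. The promoter printed above holds a CCGGAAG and a GCATGCGC motif.

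Mrpl15 (ENSMUSG00000033845, chromosome 1, 4773206 to 4785739, minus strand), a protein of the large subunit core, had 69.7, 73.6, 69.5 and 87.6 CPM in PiZ/Chop-/- libraries 1 to 4, against 112, 97.2, 94.9 and 103 CPM in PiZ libraries 1 to 4. Its log2 fold change of -0.44 (SE 0.17, adjusted p = 0.295) was -0.41 without PiZ library 4, so it did not rest on that library.

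Mrps2 (ENSMUSG00000035772, chromosome 2, 28468066 to 28471178, plus strand), a small subunit protein, had 36.7, 35.1, 32.8 and 27.9 CPM in PiZ/Chop-/- libraries 1 to 4, against 49.2, 40.3, 39.2 and 47.9 CPM in PiZ libraries 1 to 4. The gap between the groups was narrow, and the log2 fold change came to -0.41 (SE 0.20, adjusted p = 0.391). Mrps17 averaged 52.6 ± 5.93 CPM in PiZ/Chop-/- livers and 65.2 ± 5.08 CPM in PiZ livers (SD, n = 4 each). Its log2 fold change was -0.31 (SE 0.18, adjusted p = 0.499).

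Mrpl43 (ENSMUSG00000025208, chromosome 19, 45004829 to 45006442, minus strand) had 67.4, 66.1, 69.5 and 72.7 CPM in PiZ/Chop-/- libraries 1 to 4, against 80.6, 77.2, 87.1 and 87.3 CPM in PiZ libraries 1 to 4. Replicates were tight on both sides, with SDs of 2.87 CPM in PiZ/Chop-/- livers and 4.99 CPM in PiZ livers (n = 4 each), and the log2 fold change came to -0.27 (SE 0.17, adjusted p = 0.524). Twnk, which starts from the same stretch of DNA in the other direction, stood at 7.16 ± 0.682 CPM in PiZ/Chop-/- livers and 9.67 ± 5.93 CPM in PiZ livers (SD, n = 4 each), with a log2 fold change of -0.43 (adjusted p = 0.687) that turned to 0.092 without PiZ library 4. The 115 bases between their RefSeq starts hold 2 CCGGAAG motifs.

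The largest fold change and the lowest p among the members belonged to Mrpl54, a large subunit protein of mitochondria. Mrpl54 (ENSMUSG00000034932, chromosome 10, 81264713 to 81266934, minus strand) had 32.5, 32.8, 31.8 and 41.5 CPM in PiZ/Chop-/- libraries 1 to 4, against 40.0, 52.5, 49.2 and 115 CPM in PiZ libraries 1 to 4. PiZ library 4 stood far above the rest, and the groups overlapped by PiZ/Chop-/- library 4. The log2 fold change came to -0.89 (SE 0.29, adjusted p = 0.206), with a 95% interval from -1.52 to -0.26. Without PiZ library 4 it was -0.43 (adjusted p = 0.387).

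Mrps14, a small subunit protein with a bacterial counterpart, showed the same library standing apart. It averaged 13.2 ± 1.55 CPM in PiZ/Chop-/- livers and 19.9 ± 8.89 CPM in PiZ livers (SD, n = 4 each), and PiZ library 4 alone stood at 33.2 CPM. Its log2 fold change of -0.59 (adjusted p = 0.418) was -0.21 without that library. Mrps18c had -0.55 (SE 0.39, adjusted p = 0.581), with 27.5 CPM in PiZ library 4 and 9.97 to 13.1 CPM in the other PiZ libraries, and -0.11 without that library.

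The other members of lowest p had log2 fold changes between -0.43 and -0.31, and their groups overlapped. Mrpl13 stood at 29.7 ± 4.78 CPM in PiZ/Chop-/- livers and 40.0 ± 8.28 CPM in PiZ livers (SD, n = 4 each). Without PiZ library 4 the fold change of Mrpl13 came to -0.29. Mrps7, which binds the ribosomal RNA of the small subunit head, stood at 41.4 ± 10.4 CPM in PiZ/Chop-/- livers and 55.3 ± 9.51 CPM in PiZ livers (SD, n = 4 each). Mrpl51 and Mrpl57, both without a bacterial counterpart, had -0.36 and -0.35, and Mrpl51 came to -0.20 without PiZ library 1. Mrpl16, a core protein of the large subunit, had -0.31, with 124 CPM in PiZ/Chop-/- library 2 and 79.7 to 81.3 CPM in the other 3 libraries of its group. Adjusted p over these 5 genes ran from 0.415 to 0.543.

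**Figure D4:**
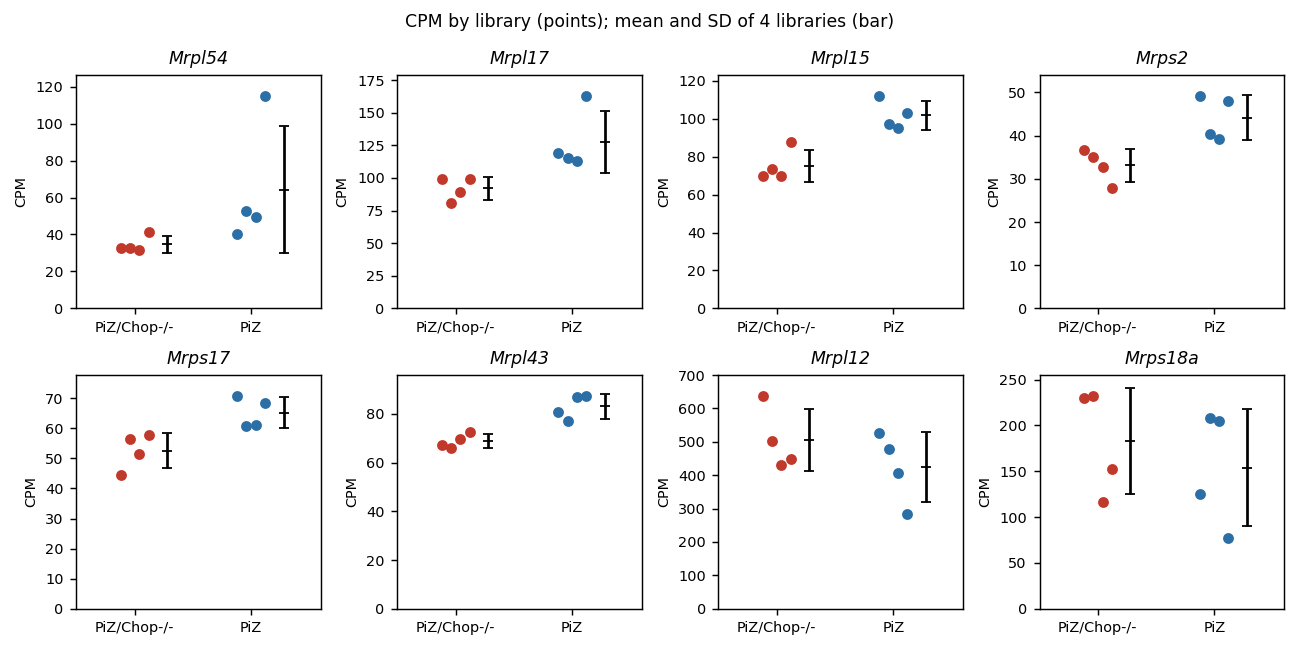
CPM of 8 genes in each library (points, libraries 1 to 4 from left to right in each group) with the mean and SD of 4 libraries beside them, PiZ/Chop-/- left of PiZ. Mrpl17, Mrpl15, Mrps2, Mrps17 and Mrpl43 have groups that do not overlap, PiZ library 4 stands at 115 CPM for Mrpl54, and the groups of Mrpl12 and Mrps18a overlap.

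Of the 5 most abundant Mrpl genes and the 5 most abundant Mrps genes, 10 in all, 7 were below 0 and none passed the test. Mrpl17 and Mrpl16, described above, are among them. Mrpl12 had 637, 502, 431 and 449 CPM in PiZ/Chop-/- libraries 1 to 4, against 525, 480, 408 and 283 CPM in PiZ libraries 1 to 4. The groups overlapped, PiZ library 4 was the lowest of the 8, and the log2 fold change came to 0.25 (SE 0.22, adjusted p = 0.662), and to 0.12 without that library. Mrps18a had 0.25 (SE 0.32, adjusted p = 0.788) and Mrps24 had 0.16 (adjusted p = 0.809). Without PiZ library 4 they came to 0.045 and 0.056, and without PiZ libraries 1 and 4 they were below 0, at -0.17 and -0.066. Mrps12 had -0.16, Mrps34 -0.25, Mrps15 -0.19, Mrpl52 -0.26 and Mrpl37 -0.15, with adjusted p between 0.605 and 0.792. Without PiZ library 4, Mrpl52 came to -0.12 and Mrps15 to -0.32, and without PiZ/Chop-/- library 3 Mrps12 came to -0.013. Mrpl37 varied little in PiZ livers (101 ± 12.9 CPM in PiZ/Chop-/- livers and 112 ± 0.824 CPM in PiZ livers, SD, n = 4 each).

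Among the 19 members with a fold change above 0, the lowest p belonged to Mrpl34, Mrpl9 and Mrps5, all with bacterial counterparts. Mrpl34 stood at 59.6 ± 13.6 CPM in PiZ/Chop-/- livers and 47.3 ± 12.5 CPM in PiZ livers (SD, n = 4 each), and its log2 fold change came to 0.34 (SE 0.23, adjusted p = 0.576). Mrpl9, at 8.70 CPM in PiZ/Chop-/- livers and 6.12 CPM in PiZ livers, had 0.51 (SE 0.40). Mrps5, at 36.8 CPM in PiZ/Chop-/- livers and 30.9 CPM in PiZ livers, had 0.25 (SE 0.21). Their groups overlapped in all 3 cases. Without PiZ/Chop-/- library 1 Mrpl34 came to 0.20 and Mrps5 to 0.17, and without PiZ/Chop-/- library 3 Mrpl9 came to 0.26.

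Also described whatever their outcome were Mrpl58, Mrpl41 and Mrps30, which are known for other functions too. Mrpl58, a peptidyl-tRNA hydrolase that frees stalled ribosomes and is built into the large subunit, had 85.5, 60.4, 36.2 and 72.7 CPM in PiZ/Chop-/- libraries 1 to 4, against 71.3, 77.7, 78.1 and 35.6 CPM in PiZ libraries 1 to 4. PiZ library 4 stood far below the rest of its group, while the PiZ/Chop-/- libraries were spread out, with library 3 the lowest. The log2 fold change of Mrpl58 came to -0.045 (95% interval -0.65 to 0.56). Mrpl41, reported to act in p53-dependent apoptosis, had -0.043 (95% interval -0.58 to 0.49), and Mrps30, once described as a programmed cell death protein, had -0.16 (95% interval -0.62 to 0.30). Without PiZ library 4 their values came to -0.23, 0.022 and -0.040. The 3 intervals exclude a 2-fold change in either direction.

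Genes that share a start region with a member did not pass the test either. Of the 31 partner genes that are not members, 18 had enough counts and 0 passed the threshold, against 1.03% of all tested genes. With so few genes, a count of 0 says little. Of the 18, 8 were below 0 (median 0.13, range -0.73 to 0.63), against 50.2% of all tested genes. The 32 tested members with any partner, Mrpl46 and Mrps11 included, had a median of -0.15, with 26 (81.2%) below 0. The 39 without one had a median of -0.14, with 26 (66.7%) below 0. Whether they differ was not tested. Psma2, the partner of Mrpl32, averaged 107 CPM in PiZ/Chop-/- livers and 150 CPM in PiZ livers (log2 fold change -0.49, adjusted p = 0.411), a value that was -0.14 without PiZ library 4 and 0.028 without PiZ libraries 1 and 4. The paired members Mrpl46 and Mrps11 had -0.29 and -0.27. With each library left out Mrpl46 ran from -0.45 to -0.058, -0.058 being without PiZ library 4, and Mrps11 from -0.85 to -0.011. The level of Mrpl46, 30.5 CPM in PiZ/Chop-/- livers and 37.1 CPM in PiZ livers, lay above that of Mrps11, at 7.19 CPM in PiZ/Chop-/- livers and 8.85 CPM in PiZ livers.

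Other genes of mitochondrial protein synthesis held no call. Over all tested genes 1.03% were called and 50.2% were below 0, so no call in lists of this size, here and below, says little. Of 5 mitochondrial ribosome proteins with other symbols 4 were tested, none passed and all 4 were below 0 (median -0.087), with Chchd1 at -0.22, and at -0.074 without PiZ library 4. Of 31 factors of ribosome assembly and RNA modification 23 were tested, none passed and 14 were below 0 (median -0.076). Fastkd2, which binds the large ribosomal RNA, had the lowest p there, at 12.5 ± 3.90 CPM in PiZ/Chop-/- livers and 23.0 ± 6.89 CPM in PiZ livers (SD, n = 4 each; log2 fold change -0.86, adjusted p = 0.258), followed by the helicase Ddx28 (-0.64, adjusted p = 0.353, and -0.41 without PiZ library 3). Of 24 listed translation factors and activators 18 were tested, none passed and 8 were below 0 (median 0.039).

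Among the lists of mitochondrial genes Slirp came nearest to the threshold. It encodes the partner of LRPPRC, a complex that stabilises mitochondrial messenger RNAs. Slirp had 51.1, 69.5, 46.2 and 52.2 CPM in PiZ/Chop-/- libraries 1 to 4, against 96.0, 73.8, 85.2 and 173 CPM in PiZ libraries 1 to 4. The groups did not overlap, and the log2 fold change of Slirp was -0.97 (SE 0.26, adjusted p = 0.0906). It passed with DESeq2 (adjusted p = 0.0495) and when low-count genes were kept (adjusted p = 0.00351), and was -0.62 (adjusted p = 0.161) without PiZ library 4. Smim20, which helps assemble cytochrome oxidase, had 0.47 (adjusted p = 0.407).

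Mitochondrial aminoacyl-tRNA synthetases were evenly split, with 14 of 19 tested, none past the threshold and 7 below 0 (median -0.0082). Gars, which serves cytosol and mitochondria, had -0.55 (adjusted p = 0.341), and -0.28 without PiZ library 4, and Hars2 had 0.48 (adjusted p = 0.426). In transcription, maintenance and RNA processing of mitochondrial DNA, 12 of 22 were tested, none passed and 8 were below 0 (median -0.037), with the nuclease Elac2 at -0.61 (adjusted p = 0.521) and Tfam, which packages mitochondrial DNA, at 0.30 (adjusted p = 0.663). Elac2 had 32.3 CPM in PiZ library 4 and came to -0.12 without it, and Tfam came to 0.13 without PiZ/Chop-/- library 3. Of 13 regulators of mitochondrial biogenesis 11 were tested, none passed and 3 were below 0 (median 0.18). Among them are subunits of GABP, one of the ETS factors whose motif CCGGAAG was in 26 of the 75 member windows. The part of GABP in the levels of the members was not tested. Gabpa had -0.85 (adjusted p = 0.375), and -0.44 without PiZ library 3, and Gabpb2 had 0.63 (adjusted p = 0.449). Gabpb1, with too few counts to be tested, had 0, 4, 3 and 2 counts in PiZ/Chop-/- libraries 1 to 4, against 11, 5, 9 and 10 in PiZ libraries 1 to 4.

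A list of 21 genes held chaperones and proteases of mitochondria and also Atf5, a transcription factor. All were tested, none passed and 12, Atf5 included, were below 0 (median -0.14). Atf5 had the lowest fold change of the list, at -0.87 (SE 0.40, adjusted p = 0.387), and its groups overlapped. Lonp1, the protease of the matrix and a marker of the mitochondrial unfolded protein response, had 138, 160, 106 and 122 CPM in PiZ/Chop-/- libraries 1 to 4, against 178, 195, 215 and 216 CPM in PiZ libraries 1 to 4. The groups did not overlap, and the log2 fold change came to -0.61 (SE 0.18, adjusted p = 0.139). Hspd1, the matrix chaperonin, had -0.47 (adjusted p = 0.347), and -0.27 without PiZ library 4. Of 22 import and outer membrane genes 20 were tested, none passed and 12 were below 0 (median -0.038), with Vdac2, an outer membrane channel, at -0.58 (adjusted p = 0.205).

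Respiratory chain genes, whose products meet those of the mitochondrial ribosomes, held no call either. Of 89 nuclear-encoded respiratory chain and ATP synthase genes 77 were tested, none passed and 40 were below 0 (median -0.017), with Atp5l at 1.09 (SE 0.44) and Ndufa4 at 0.59 (adjusted p = 0.376). Atp5l came to 1.69 without PiZ library 3 and Ndufa4 to 0.36 without PiZ library 2. Of the 13 protein genes of mitochondrial DNA 7 were tested, none passed and 1 was below 0 (median 0.17). No library held a count of mt-Atp6, mt-Atp8, mt-Co2 or mt-Nd4l, so sums over the 13 leave these out. The summed level was 64100 ± 7510 CPM in PiZ/Chop-/- livers and 56200 ± 5250 CPM in PiZ livers (SD, n = 4 each). PiZ/Chop-/- libraries 1 to 4 stood at 75200, 61700, 59600 and 59800 CPM. PiZ libraries 1 to 4 stood at 59600, 60000, 56600 and 48700 CPM. The groups overlapped, with PiZ/Chop-/- library 1 the highest and PiZ library 4 the lowest. Among these mitochondrial genes mt-Nd2 had 0.33 (adjusted p = 0.536) and mt-Nd4 0.27 (adjusted p = 0.638). These came to 0.22 for mt-Nd2 without PiZ library 4 and 0.094 for mt-Nd4 without PiZ/Chop-/- library 1. The difference between these lists and the members was not tested.

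Cytosolic ribosomal proteins leaned the same way and further, with 56 of 84 tested, none past the threshold and 52 (92.9%) below 0 (median -0.35). Rpl13a had the lowest p among them, with -0.71 (adjusted p = 0.180). In library scores the cytosolic genes stood at -0.26 to -0.058 in PiZ/Chop-/- livers and at 0.044 to 0.45 in PiZ livers, with PiZ library 4 the highest as for the mitochondrial genes. Whether the medians of the 2 families differ was not tested.

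**Figure D5:**
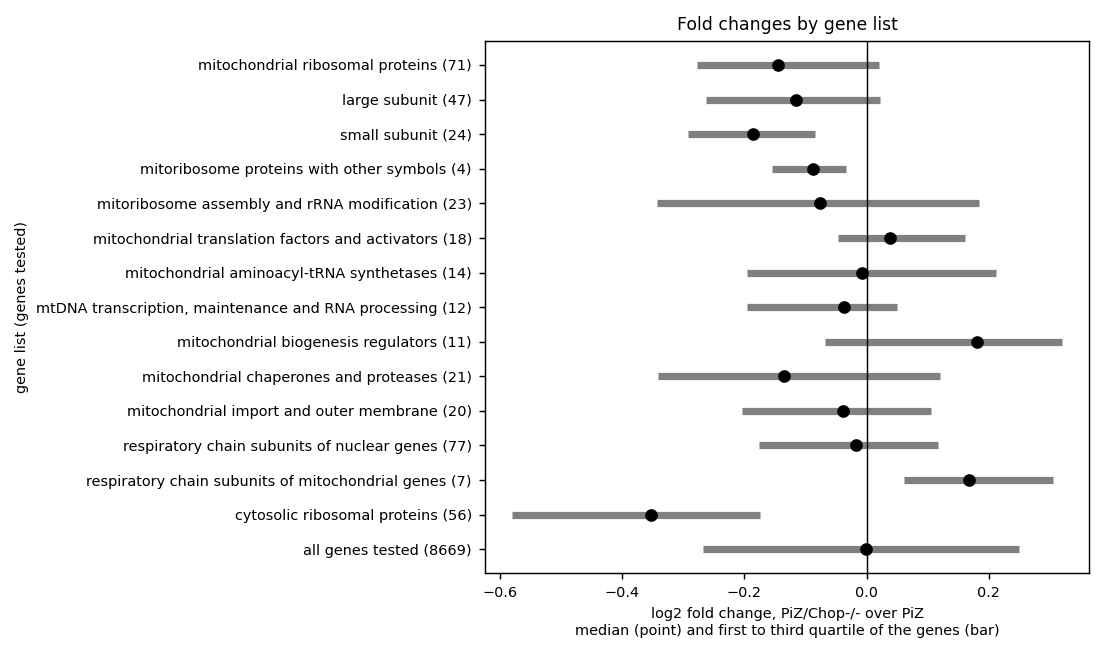
Median log2 fold change of PiZ/Chop-/- over PiZ (point) and the range from the first to the third quartile of the genes (bar) for each gene list, with the number of genes tested in parentheses. The mitochondrial ribosomal proteins have a median of -0.15, the cytosolic ones of -0.35, and all tested genes of -0.0016.

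No marker of another liver cell type passed the test, and the lists differed in direction. Of 11 Kupffer cell and macrophage markers 10 were below 0 and none passed; their summed level ran from 774 to 943 CPM in PiZ/Chop-/- livers and from 1000 to 1470 CPM in PiZ livers. Of 8 tested stellate cell markers all were below 0 and none passed, with sums of 282 to 443 CPM in PiZ/Chop-/- livers and 404 to 520 CPM in PiZ livers. Of 9 sinusoidal endothelial markers 1 was below 0 and none passed, with sums of 372 to 389 CPM in PiZ/Chop-/- livers and 253 to 342 CPM in PiZ livers. Of 5 red cell markers all were above 0 and none passed, with sums of 341 to 1450 CPM in PiZ/Chop-/- livers and 351 to 832 CPM in PiZ livers. No marker of these 4 lists was at 0 in all libraries. Their part in the lean of the ribosomal proteins was not tested.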

How the data were processed

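RNA of whole livers was read at transcript 3' ends with the QuantSeq kit and single-end reads of 75 bases, per the labels' protocols. Per the file headers, the authors deposited raw counts for each gene. The submitters' processing notes name STAR, HTSeq and mm10. The sources used here do not give the annotation, the strand setting or the handling of PCR copies, so limits cover counting error only. Groups and replicate numbers came from the sample titles. Of 52551 rows, 52403 IDs were found in GENCODE mouse M21, which may not be the authors' release.

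The test was edgeR 4.0.16 under R 4.3.3 (filterByExpr with a minimum count of 10, TMM, robust glmQLFit and glmQLFTest, no covariate), and p-values were adjusted by Benjamini-Hochberg over 8669 genes. The SE is the fold change divided by the square root of F, and 95% intervals use its t quantile. Alternatives were other scalings and filters, DESeq2 1.42.0, limma-voom (limma 3.58.1), a non-robust fit, omission of the 20 most abundant genes, a replicate block and each library left out. The omission of PiZ libraries 1 and 4 together was chosen after seeing the data. The script was checked in 3 runs on simulated data. It called 42% of the true 2-fold changes and 93.7% of the 4-fold changes, and 6.48% of its calls were false. A gene that did not pass may thus still have changed by 2-fold. Members, lists and motifs were chosen with earlier results of these data known. Named genes were the 12 members of lowest p and the 5 of highest CPM under each symbol, Mrpl and Mrps. To these were added the 3 of lowest p above 0, those with groups that did not overlap, and 10 chosen for their function. Each related list gave up to 2 of lowest p. Genes facing a member, Gabpb1, Atf5, and members in the closing section, were named after their values were seen. Promoter sequences are from RefSeq.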

Additional observations from a re-analysis of the deposited data

Results flagged for a closer look

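Over the 71 tested genes in 2 groups of 4 libraries, 142 sets of values, 10 had 1 library whose gap to the next, as a share of the whole range, was beyond Dixon's 95% critical value. Chance flags about 1 in 20 such sets. PiZ library 4 was that library in 5 of the 10. It was high for Mrpl54 (115 CPM, against 40.0 to 52.5 in the other PiZ libraries), Mrpl17 (163, against 113 to 119), Mrps14 (33.2, against 14.5 to 16.0) and Mrpl36 (39.4, against 21.9 to 24.6), and low for Mrpl58 (35.6, against 71.3 to 78.1).

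PiZ/Chop-/- library 2 was high for Mrpl16 (124 CPM, against 79.7 to 81.3 in the others of its group) and low for Mrpl14 (86.2, against 102 to 103). PiZ/Chop-/- library 4 was high for Mrpl54 (41.5, against 31.8 to 32.8), PiZ library 3 was low for Mrps27 (5.79, against 11.7 to 12.1), and PiZ library 1 was high for Mrpl19 (23.4, against 20.4 to 20.9).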

How the results depend on the processing

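The count of members past the threshold was 0 in each alternative except the fit with no filter on low counts, where it was 1. Over all genes the count was 89, but 208 with DESeq2 and 357 with no filter, where more genes were tested; with each library left out it ran from 46 to 169. The members' median ran from -0.16 to -0.065 with each library left out and was -0.23 with library size only. Members below 0 numbered 43 to 58 over the alternatives. Of 53 named genes 44 kept direction and side of the threshold in all 19 alternatives. The sign turned for Mrps18a (-0.17), Mrps24 (-0.066), Psma2 (0.028) and Twnk (0.023) without PiZ libraries 1 and 4; with each library left out Mrpl58 ran from -0.23 to 0.15, Mrpl41 from -0.19 to 0.043 and Twnk from -0.59 to 0.092. SERPINA1 missed the threshold without PiZ/Chop-/- library 3 (adjusted p = 0.0575). The cause was not tested. Libraries with the same number did not visibly deviate together (correlations -0.051 to 0.049), which cannot exclude that the numbers pair them. With a replicate block 76 genes and 0 members were called.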
